A study of Mus musculus with 8 samples.

Results

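The 8 genes described here encode factors with which myeloid cells restrain immunity or act on vessels and matrix, and the receptors for some of them. The secreted factors were Il10, Inhba, Vegfa, Tgfb1, Tgfbi and Thbs1, and the receptors were Il10ra and Tgfbr2. They were chosen by name, though with earlier results of these data known, and all 8 were found among the 32285 genes of the matrices. Monocytic myeloid-derived suppressor cells had been sorted by their surface markers, as CD45+CD11b+Ly6Chi cells, from tumors or from blood of mice carrying MC38, a colon carcinoma line implanted under the skin of the flank. Tumors were left untreated (control) or were given 1 local dose of 20 Gy of ionizing radiation (IR), and cells were taken 3 days later. The mice were male and female and 8 to 10 weeks old, and all of them carried floxed Ythdf2. Ythdf2 fl/fl mice without Cre are called WT, and mice with Lyz-Cre in addition are called cKO. Lyz-Cre is inserted at Lyz2 and acts in myeloid cells. Ythdf2 encodes a reader of methylated adenosine in mRNA. Each of the 4 libraries (tumor control, tumor IR, blood control and blood IR) mixed both genotypes, which were told apart by hashtag antibodies. Each of the 8 groups was therefore 1 pool of 5 mice in 1 library, and no spread between mice could be measured, so no test is given. The question was which tumor cells make each factor, with and without IR.

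IL-10 is a cytokine that dampens inflammatory gene expression in macrophages through a receptor whose ligand-binding chain is IL10RA. TGF-β1 is secreted in a latent form, is activated outside the cell and signals through TGFBR2, which recruits the type I receptor and leads to activation of Smad proteins. Thrombospondin 1, the product of Thbs1, is a matrix protein that can activate latent TGF-β and restrains vessel growth, whereas VEGF-A drives it. Activin A is a dimer of the subunit that Inhba encodes and belongs to the same superfamily as TGF-β. Tgfbi encodes a matrix protein that TGF-β induces. Myeloid cells of tumors are known sources of these factors.

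The genes lie on mm10 as follows, with the positions of the GENCODE vM21 annotation. Il10 is on the forward strand at chr1:131019845-131024974, Thbs1 on the forward strand at chr2:118111876-118127133, and Tgfb1 on the forward strand at chr7:25687002-25705077. Inhba and Tgfbi are on the forward strand of chromosome 13, at chr13:16011851-16031621 and chr13:56609523-56639562. Il10ra and Tgfbr2 are on the reverse strand of chromosome 9, at chr9:45253837-45269149 and chr9:116084293-116175360, and Vegfa is on the reverse strand at chr17:46016993-46032369. All 8 are annotated as protein coding. Promoter sequence was found for Inhba, Vegfa, Tgfb1, Tgfbi and Tgfbr2 in a RefSeq table (GRCm38.p6), and 3 of them are shown because these members were past 2-fold with IR in macrophage-like cells labelled cKO, as described further on. Each is the 250 bases before the start, written in the direction of transcription. Capitals mark matches to the TATA box TATAAA and to CAGAC, the core that Smad proteins bind, which reads GTCTG where the match lies on the other strand.
Inhba promoter, chr13:16011601-16011850, forward strand: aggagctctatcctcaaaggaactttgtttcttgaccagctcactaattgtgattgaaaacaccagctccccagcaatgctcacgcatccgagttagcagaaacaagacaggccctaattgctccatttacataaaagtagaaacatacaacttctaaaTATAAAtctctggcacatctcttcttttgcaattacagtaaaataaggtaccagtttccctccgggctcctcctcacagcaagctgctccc
Vegfa promoter, chr17:46032378-46032627, reverse strand: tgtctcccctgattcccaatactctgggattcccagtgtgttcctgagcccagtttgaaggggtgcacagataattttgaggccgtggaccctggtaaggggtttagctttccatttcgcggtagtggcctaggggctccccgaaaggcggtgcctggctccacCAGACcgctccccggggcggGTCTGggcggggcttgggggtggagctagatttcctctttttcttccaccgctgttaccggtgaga
Tgfbr2 promoter, chr9:116175364-116175613, reverse strand: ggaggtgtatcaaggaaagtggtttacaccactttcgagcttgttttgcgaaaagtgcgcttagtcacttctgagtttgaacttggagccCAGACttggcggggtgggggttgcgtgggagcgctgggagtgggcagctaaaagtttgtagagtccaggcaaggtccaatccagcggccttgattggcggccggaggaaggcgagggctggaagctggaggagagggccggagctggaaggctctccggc
The Inhba window held TATAAA, beginning 91 bases before the start, and no CAGAC. The Vegfa window held CAGAC 86 bases and GTCTG 66 bases before the start, and the Tgfbr2 window held CAGAC 160 bases before it. Among 32851 windows of this length before annotated starts, 12.4% held TATAAA and 42.2% held CAGAC on either strand. Of the windows of the 5 genes, only 1, at another annotated start of Vegfa, held ACGTG, the core of the hypoxia response element, which 16.6% of all windows held. None held TGANTCA, the AP-1 motif (6.75% of windows), or TTCNNNGAA, the STAT motif (7.02%). These are matches of letters and say nothing about binding.

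In tumor control 2501 cells labelled WT and 2141 labelled cKO were kept, in tumor IR 3104 and 3760, in blood control 4407 and 3594, and in blood IR 3846 and 3167. Median depths were 6017 to 8592 unique molecular identifiers (UMIs) a cell in tumor and 2936 to 3375.5 in blood. The tumor matrices shared barcodes: 7327 barcodes of tumor control (55.7% of those with at least 500 UMIs) and 4958 of tumor IR (38.4%) had under 20 hashtag UMIs, and 7325 and 4955 of these carried hashtags in the other tumor library. They were left out, and 31 kept barcodes occurred in both tumor libraries. UMIs of Ythdf2 went against the label, at 51.5 and 56.0 CPM in tumor cells labelled WT and 338 and 373 in those labelled cKO. Tags at the 3′ end can lie outside the deleted part, but where they lay was not examined. Why the level was higher in cells labelled cKO was not tested, and the genotypes below are those of the labels. Lyz2, which the inserted Cre interrupts, was at 5600 and 6880 in tumor cells labelled WT and at 89.6 and 99.1 in those labelled cKO. Levels are given as CPM, the UMIs of a gene per 1000000 gene UMIs of the group, with a 95% exact Poisson interval, and groups are compared as log2 ratios with an exact 95% interval. These intervals cover counting error only. A gene was called past 2-fold where the log2 ratio was at least 1 either way and the 2 groups held at least 100 UMIs of it together.

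Clustering of all kept cells gave 23 clusters, named from lists of markers. Macrophage-like cells were cluster 6 (led by Pf4, Fcrls, Mrc1, Folr2 and C1qc) and cluster 17, which was led by cycling genes such as Mki67. Most other tumor cells stayed without a name. In clusters 4, 5, 7 and 10 under 3 markers of any class were raised. The leading genes of cluster 3 held more markers of another class than of macrophages. Cluster 3 was led by Cdh1, H2-Eb1, H2-Ab1 and Cxcl9, and 4 macrophage markers were raised in it (C1qa, C1qb, C1qc and Trem2). Adora2b, Nrg1, Havcr2 and Cxcl10 led cluster 4, and Thbs1 was among its 10 leading genes. Ifit1bl1, Ifit2 and Rsad2, genes induced by interferon, led cluster 5, which held 2780 CPM of the monocyte gene Ly6c2. Cluster 10 was led by Ccl3 and G0s2 and held the neutrophil gene S100a8 at 16400. Cluster 7 held few UMIs, a median of 1481. Fibroblast-like (cluster 12), dendritic-like (13 and 19) and NK-like cells (14) were the other named clusters with at least 50 cells in a tumor group. Clusters 5 and 10 came almost wholly from the irradiated library, with 840 and 939 cells of cluster 5 in IR against 48 and 21 in control (WT and cKO in each case), and 322 and 243 against 14 and 27 for cluster 10. Cell state, treatment and library cannot be told apart for them. Cluster 12 held Ptprc, the gene of CD45, at only 7.34 CPM. It took 16.7% of the UMIs of WT and 30.5% of those of cKO control tumor, and 9.84% and 5.59% after IR, so it lowers the level of any gene it lacks. The 8 genes were left out of the genes used for the clustering. Levels across clusters are given as a description. Values by cluster are given for clusters of at least 50 cells in a group.

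Across the whole of the sorted tumor cells, IR went with less Il10 and more Inhba and Thbs1. In cells labelled WT, 1 of the 8 genes was past 2-fold between IR and control, and it was Il10, which was lower. Of all 10158 genes with at least 100 UMIs, 5.8% were past 2-fold (263 higher and 326 lower), and the median log2 ratio was 0.24 over the 8 genes and -0.13 over all. In cells labelled cKO, 3 of 8 were past 2-fold, Il10 lower and Inhba and Thbs1 higher, where 22.0% of 10694 genes were, most of them lower (1797 of 2351). The median was 0.63 over the 8 genes and -0.18 over all.

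**Figure D1:**
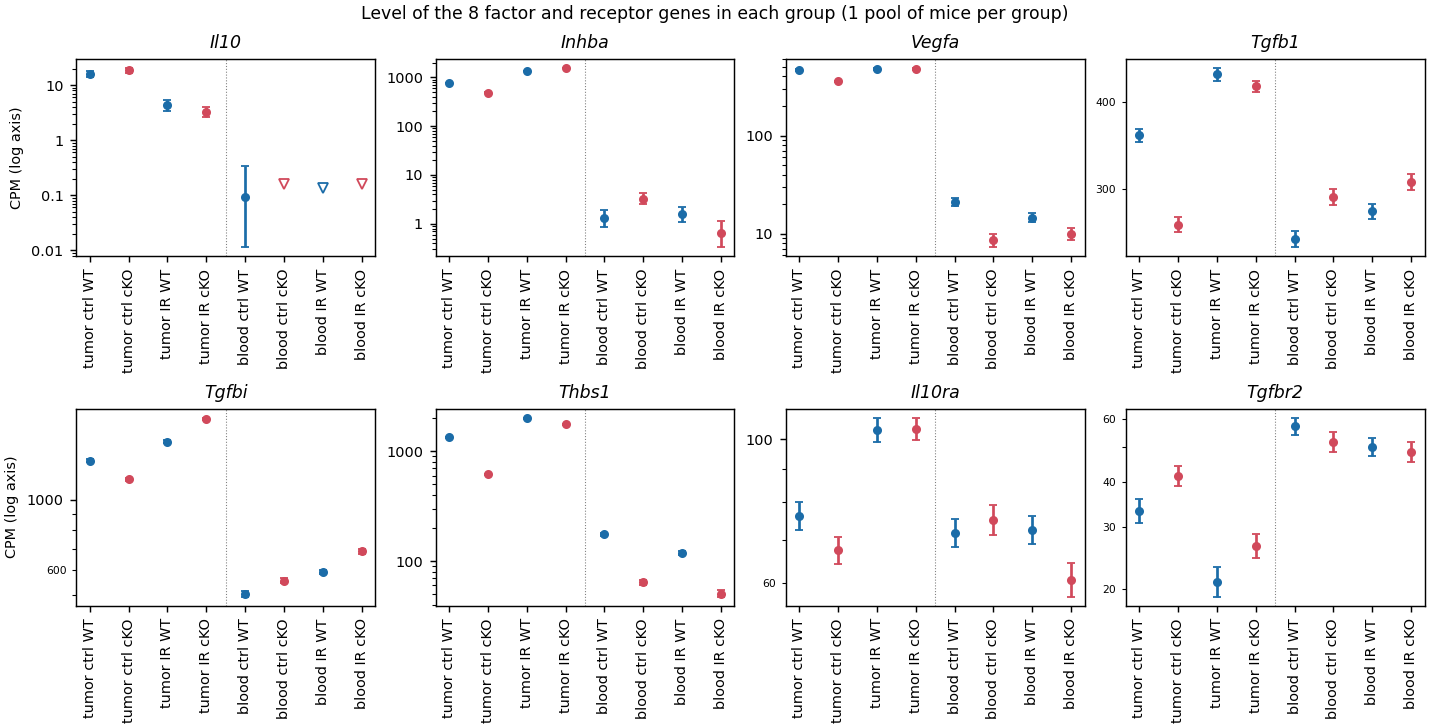
Level of each of the 8 genes (y axis, CPM, log axis) in the 8 groups (x axis), blue for cells labelled WT and red for cells labelled cKO, with tumor to the left and blood to the right of the dotted line. Bars are 95% counting intervals, and open triangles mark groups without a UMI, drawn at the level that 3 UMIs would give. Il10 and Inhba were all but confined to tumor, Il10 was lower and Inhba and Thbs1 were higher in irradiated tumor, and Tgfbr2 was lower there.

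Comparing the genotypes, 1 of 8 genes was past 2-fold in control tumor, Thbs1, which was lower in cells labelled cKO. This compared with 4.74% of 10685 genes (364 higher and 142 lower). After IR, 0 of 8 were past 2-fold, where 1.08% of 10043 genes were, and the median over the 8 genes was 0.01. Groups of control tumor enter both the IR and the genotype comparisons, so these are not independent.

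Il10 had the sparsest counts. Control tumor held 323 UMIs in the cells labelled WT and 443 in those labelled cKO, or 15.95 (14.3 to 17.8) and 18.6 (16.9 to 20.4) CPM. Irradiated tumor held 87 and 81, or 4.29 (3.43 to 5.29) and 3.26 (2.59 to 4.05). Both control groups were above both IR groups, and the intervals did not overlap. On the log2 scale IR differed from control by -1.88 (-2.25 to -1.55) in WT and by -2.5 (-2.87 to -2.17) in cKO. Few cells carried it, 2.96% and 4.95% of cells in control and 0.967% and 0.798% after IR (WT and cKO). With every cell thinned to 1500 UMIs these shares were 1.44%, 2.19%, 0.315% and 0.259%. The 1% of cells with the most Il10 held 78.0% and 61.2% of its UMIs in control, and 1 cell held up to 28. After IR 1% of the cells held all of them, and 1 cell held up to 19 of the 81 UMIs.

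Macrophage-like cluster 6 held the largest share of Il10 in control tumor, 32.8% of the UMIs in WT and 51.2% in cKO. Its level was 34.8 (28.5 to 42.0) and 52.2 (45.6 to 59.4) CPM there, against 9.94 (6.07 to 15.4) and 4.96 (2.94 to 7.84) after IR. The cycling macrophage-like cluster 17 reached 32.5 (25.5 to 40.9) in control cKO, where it had 156 cells and was under 50 in the other groups. Cluster 7 was at 80.5 and 93.9 in control, from 29 and 36 UMIs, and at 2.02 and 10.2 after IR, from 1 and 6. Cluster 3 went from 13.05 and 12.5 to 1.37 and 0.309. Each of these 3 clusters (3, 6 and 7) was lower after IR in both genotypes. In WT, cluster 4 went from 8.54 to 6.58 (33 and 24 UMIs), with an interval that spanned 0 (-0.36: -1.2 to 0.43). In cKO it went from 10.5 to 0.272 (22 UMIs and 1 UMI). After IR cluster 5 held 40.2% of the UMIs in WT and 65.4% in cKO, at 6.3 and 8.22 CPM. The fibroblast-like cluster held 1 and 2 UMIs in control. Free RNA, taken from barcodes too small to be cells, held Il10 at 21.2 (14.1 to 30.6) without and 6.19 (2.67 to 12.2) with IR of the tumor, close to the level in the cells, and its part in the values was not tested.

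Inhba, the activin A subunit, showed the reverse order. Its level was 768 (756 to 780) CPM in WT and 481 (472 to 490) in cKO control tumor, and 1343 (1327 to 1359) and 1529 (1514 to 1545) after IR. The 2 irradiated groups were the highest and control cKO the lowest. IR against control gave 0.81 (0.78 to 0.83) on the log2 scale for WT and 1.67 (1.64 to 1.7) for cKO. The share of cells with a UMI was 44.0% (WT) and 42.7% (cKO) in control against 57.4% and 58.8% after IR, or 29.4%, 23.7%, 43.8% and 46.1% after thinning. In NK-like cells, which are not known as a source of activin, the thinned share was 0.641% to 3.51% over the 4 groups at a median of 2681 UMIs, and 2.4% to 6.35% unthinned.

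In control tumor cluster 3 held 43.5% of the Inhba UMIs in WT and 43.9% in cKO. Cluster 6 held 22.4% and 14.7%, and cluster 4 held 21.6% and 16.5%. After IR the interferon-gene cluster 5 held the largest share in both genotypes, 36.5% in WT and 29.2% in cKO, followed by cluster 3 (22.9% and 27.4%) and cluster 6 (22.0% and 26.4%). In CPM, however, cluster 6 was the highest of the clusters after IR, at 2979 in WT and 2764 in cKO. Its control levels were 1142 and 387, so its log2 ratios were 1.38 (1.32 to 1.44) and 2.84 (2.76 to 2.91). In cluster 3 the ratios were 0.46 (0.41 to 0.51) and 0.97 (0.92 to 1.02). Cluster 4 differed between the genotypes in sign, with -0.19 (-0.26 to -0.11) in WT and 0.24 (0.16 to 0.32) in cKO. Dendritic-like cells (cluster 13) were far lower, at 52.0 and 10.7 in control and 66.4 and 117 after IR. Of the clusters with enough UMIs, 5 of 5 in cKO had an interval above 0 with IR, whereas in WT 3 of 6 did and 2 were below 0.

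**Figure D2:**
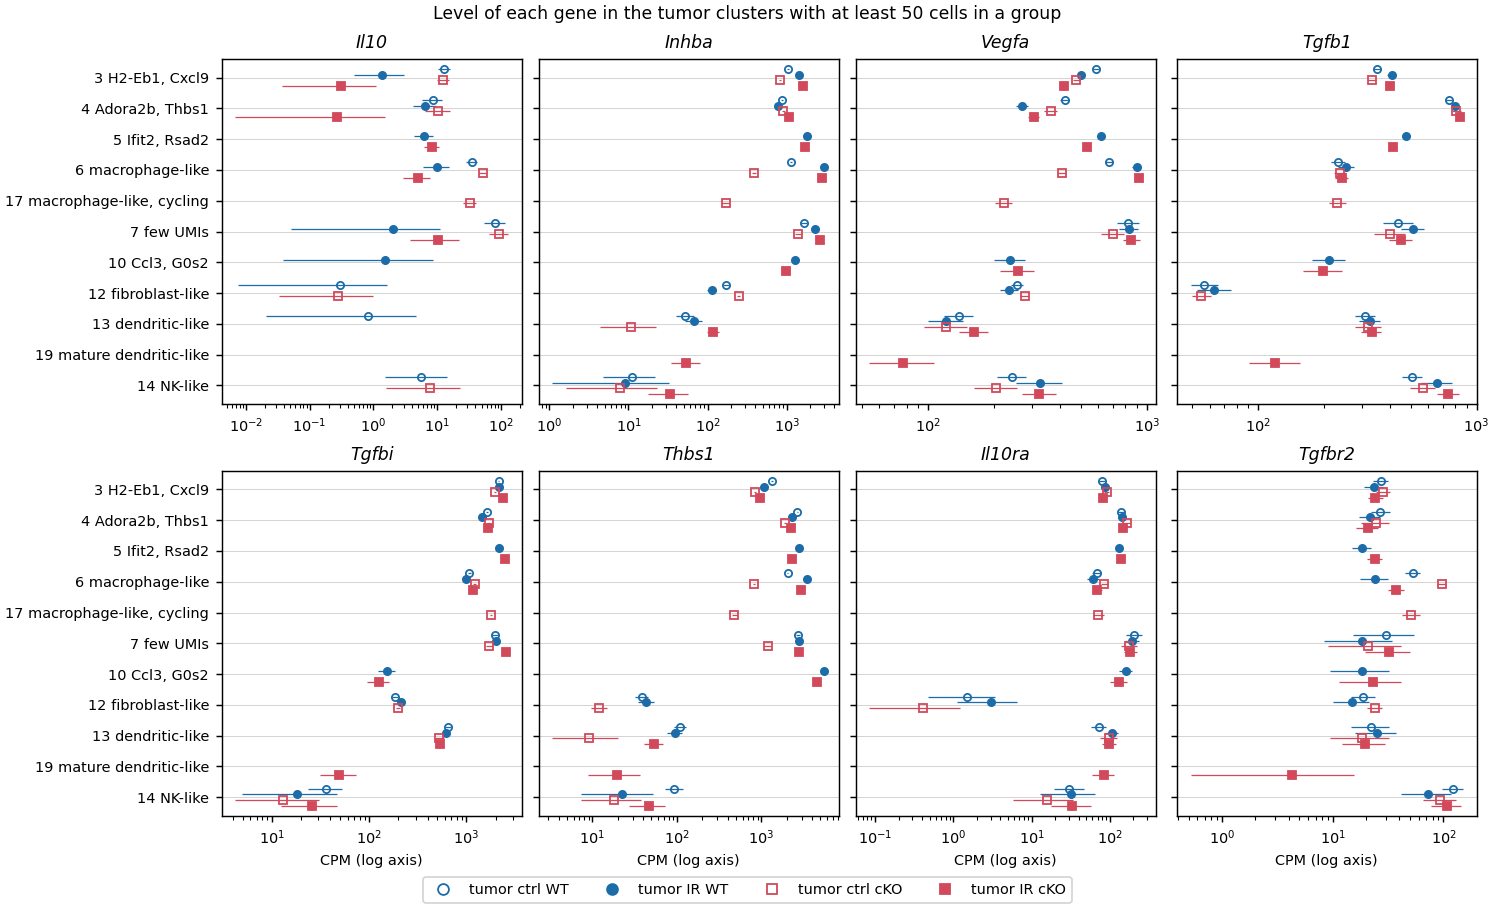
Level of each gene (x axis, CPM, log axis) in each tumor cluster with at least 50 cells in a group (y axis), with circles for WT and squares for cKO, open for control and filled for IR. Bars are 95% counting intervals, and groups without a UMI are not drawn. Filled symbols of Inhba and Thbs1 lie to the right of the open ones in macrophage-like cluster 6, and those of Il10 and Tgfbr2 lie to the left.

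Vegfa, the vessel growth factor, was at 464 (455 to 474) CPM in WT and 356 (348 to 363) in cKO control tumor, and at 477 (468 to 487) and 479 (471 to 488) after IR. Control cKO was the lowest of the 4 groups, and the other groups lay close together. IR against control gave a log2 ratio of 0.04 (-0.0 to 0.08) in WT and 0.43 (0.39 to 0.47) in cKO. The clusters moved in different directions in both genotypes, and the total was near level in WT alone. Cluster 6 was higher after IR, from 672 to 901 in WT (0.42: 0.33 to 0.51) and from 410 to 921 in cKO (1.17: 1.08 to 1.25). Cluster 4 was lower, from 422 to 269 in WT (-0.65: -0.76 to -0.53) and from 364 to 304 in cKO (-0.26: -0.39 to -0.12). Cluster 3 was lower as well, by -0.23 and -0.19 on the log2 scale. Cluster 3 held 40.7% and 34.3% of the Vegfa UMIs in control, and cluster 5 held 35.5% and 29.1% after IR. Fibroblast-like cells were at 256 and 277 in control and held 23.7% of the Vegfa UMIs of control cKO tumor, against 9.19% in WT.

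Tgfb1 had the highest level in cluster 4, at 746 and 808 CPM in control and 796 and 838 after IR (WT and cKO). NK-like cells followed at 506 to 743 over the 4 groups. Macrophage-like cluster 6 was lower, at 234 to 253, and fibroblast-like cells were at 55.0 to 63.1. Over all tumor cells control WT held 358 (350 to 366) and control cKO 266 (260 to 273) CPM, with 438 (429 to 448) and 421 (413 to 429) after IR. Irradiated cells were higher by 0.29 (0.25 to 0.34) in WT and by 0.66 (0.62 to 0.71) in cKO on the log2 scale. Within clusters this ratio was 0.23 and 0.27 in cluster 3, 0.09 and 0.05 in cluster 4 and 0.38 and 0.39 in NK-like cells. It ran from 0.07 to 0.38 over 7 clusters in WT and from 0.03 to 0.39 over 6 in cKO. Cluster 4 held 39.7% of the Tgfb1 UMIs of control WT, the largest share there, and cluster 3 held the largest share in control cKO (32.0%). After IR cluster 4 led in both genotypes, with 32.6% and 29.5%.

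The matrix genes Tgfbi and Thbs1 differed in where they were found. Tgfbi was broad: 68.1% to 73.3% of tumor cells carried a UMI after thinning (82.2% to 87.9% before), against 1.75% to 7.14% of NK-like cells (5.95% to 9.58% before). Its level was 1330 and 1160 CPM in control and 1527 and 1803 after IR. Irradiated tumor was higher by 0.2 (0.18 to 0.22) in WT and 0.64 (0.61 to 0.66) in cKO, again as log2 ratios. Clusters 3, 5 and 7 were at 1974 to 2387, 2164 to 2510 and 1721 to 2543, the cycling macrophage-like cluster 17 was at 1795 in control cKO, and clusters 4 and 6 were at 1454 to 1694 and 982 to 1213. Cluster 10 held little, 151 in WT and 125 in cKO. Cluster 3 held 51.7% and 43.6% of its UMIs in control, and cluster 5 held 38.8% and 36.1% after IR.

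Thbs1 was at 1350 (1334 to 1366) CPM in WT and 617 (607 to 627) in cKO control tumor, and at 2016 (1996 to 2035) and 1774 (1757 to 1790) after IR. Control cKO was below the other 3 groups by more than 2-fold. For IR the log2 ratio came to 0.58 (0.56 to 0.6) in WT and 1.52 (1.5 to 1.55) in cKO, and for cKO against WT it was -1.13 (-1.16 to -1.1) in control and -0.18 after IR. Without the fibroblast-like cluster, which held 30.5% of the UMIs of control cKO and little Thbs1, the levels were 1613, 882, 2231 and 1874, and the ratio of cKO to WT in control was -0.87. In 6 of 6 clusters with enough UMIs Thbs1 was lower in control cells labelled cKO with an interval below 0, from -3.42 to -0.49. After IR it was in 6 of 7, from -0.81 to -0.02.

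The cluster with the highest level of Thbs1 was cluster 10, at 5478 in WT and 4558 in cKO after IR, where it held 8.76% and 4.95% of the UMIs. Cluster 5, at 2796 and 2323, held the largest shares after IR, 38.0% and 34.0%. Cluster 7 was at 2794 and 2750 after IR. In cluster 6, which came next to cluster 10 in level after IR, Thbs1 went from 2040 to 3416 in WT (0.74: 0.69 to 0.79) and from 818 to 2910 in cKO (1.83: 1.78 to 1.89). In clusters 3 and 4, by contrast, WT cells were lower after IR (-0.32 and -0.2) and cKO cells were slightly higher (0.17 and 0.23). NK-like cells were at 18.2 to 92.9 and fibroblast-like cells at 11.97 to 43.1. Thbs1 is abundant in platelets. The 5 platelet markers summed to 522 (WT) and 668 CPM (cKO) without IR, and 609.5 and 1181 with it. Most of this was Pf4, at 663 in control cKO and 1160 in irradiated cKO, which also led macrophage-like cluster 6, whereas Ppbp was at 2.27, 4.11, 6.06 and 18.8 in the same order of groups. The part of platelets in the Thbs1 values was not tested.

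**Figure D3:**
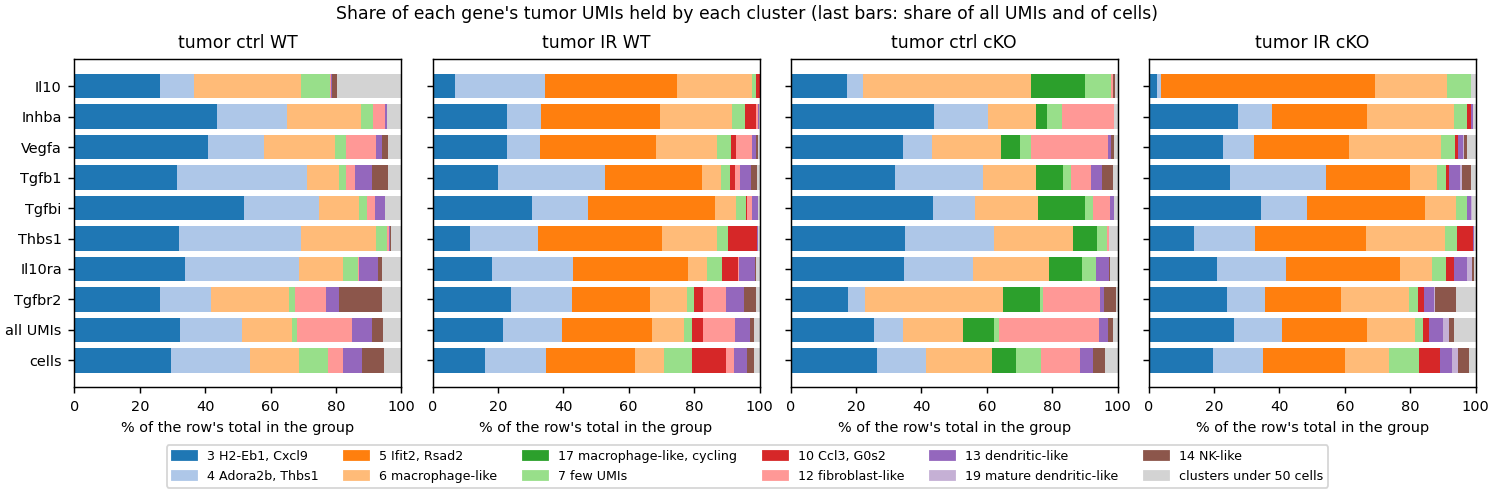
Share of each gene's tumor UMIs held by each cluster (x axis, %), 1 panel per group and 1 bar per gene, with the shares of all UMIs and of cells in the last 2 bars. Cluster 5 is large in the irradiated panels alone, cluster 12 takes 30.5% of all UMIs in control cKO, and Il10 sits mostly in macrophage-like cluster 6 in control cKO (51.2%).

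Il10ra, the ligand-binding chain of the IL-10 receptor, was at 76.2 (72.5 to 80.1) and 67.4 (64.1 to 70.8) CPM in control tumor and at 104 (99.1 to 108) and 104 (99.8 to 108) after IR (WT and cKO). Both IR groups were above both control groups, with log2 ratios of 0.44 (0.35 to 0.54) and 0.62 (0.53 to 0.71). Cluster 7 was the highest at 177 to 206, and clusters 4, 5 and 10 lay at 139 to 164, 132 to 139 and 129.5 to 159. Macrophage-like cluster 6, where Il10 itself was high, was at 61.7 to 85.5. Within clusters 3, 4 and 6 none of the 6 ratios of IR to control reached 0.2 either way except that of cluster 6 in cKO, -0.3 (-0.54 to -0.07).

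Tgfbr2, the receptor that binds TGF-β, had its highest levels in NK-like cells, 122 and 93.6 in control and 72.2 and 108 after IR, and in macrophage-like cluster 6 of control tumor, 52.8 and 96.3. Over all tumor cells it was at 33.1 (30.7 to 35.7) and 41.6 (39.1 to 44.3) in control and at 21.0 (19.1 to 23.1) and 26.5 (24.5 to 28.6) after IR. Both irradiated groups were below both control groups, and the log2 ratio was -0.65 both in WT (-0.83 to -0.48) and in cKO (-0.8 to -0.51). In cluster 6 it was -1.13 (-1.64 to -0.67) and -1.36 (-1.65 to -1.08), against -0.2 (-0.56 to 0.16) and -0.23 (-0.55 to 0.09) in cluster 3. Cells labelled cKO held more Tgfbr2 than cells labelled WT in both treatments, by 0.33 (0.19 to 0.47) in control and 0.33 (0.15 to 0.51) after IR.

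Macrophage-like cells (clusters 6 and 17) were compared as a class. They were 406 and 588 cells in control and 285 and 522 after IR, and cluster 17 held 156 of the 588. The share of UMIs that the class held depended on the clustering resolution, as given in the closing section. In WT, 3 of 8 genes were past 2-fold, Inhba higher and Il10 and Tgfbr2 lower, where 6.04% of 5418 genes were. In cKO, 5 of 8 were, Inhba, Vegfa and Thbs1 higher and Il10 and Tgfbr2 lower, where 17.0% of 7242 genes were. Under 5 other ways of drawing or scaling the class (1 of them, cluster 6 alone, chosen after seeing the data), Il10 stayed past 2-fold in both genotypes, and so did Inhba and Thbs1 in cKO. Vegfa in cKO stayed in 2 of 5 (0.41 to 1.61) and Tgfbr2 in 3 of 5 (-1.36 to -0.76), whereas in WT Inhba stayed in 3 of 5 (0.67 to 1.68) and Tgfbr2 in 1 of 5 (-1.13 to -0.67). Inhba went from 1002 to 2830 CPM in WT (1.5: 1.44 to 1.56) and from 313 to 2678 in cKO (3.1: 3.03 to 3.17). Thbs1 went from 1786 to 3294 (0.88: 0.83 to 0.93) and from 702 to 2825 (2.01: 1.96 to 2.06). Il10 went from 46.2 to 9.39 (-2.26: -3.05 to -1.62) and from 45.5 to 4.78 (-3.2: -4.02 to -2.56). For Tgfb1 the ratios were 0.18 (0.02 to 0.34) and 0.04 (-0.08 to 0.16), and for Tgfbi they were -0.2 and -0.25.

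Inhba and Thbs1 also differed between the genotypes of this class before IR. Inhba was 1002 in WT and 313 in cKO (-1.68: -1.76 to -1.6), and Thbs1 was 1786 and 702 (-1.35: -1.4 to -1.29). These were the 2 of 8 genes past 2-fold, where 2.93% of 7265 genes were. After IR, 0 of 7 genes with enough UMIs were, where 0.379% of 5283 genes were. Inhba was then at -0.08 (-0.13 to -0.03) and Thbs1 at -0.22 (-0.27 to -0.18). In cluster 6 alone the control ratios were -1.56 for Inhba and -1.32 for Thbs1. The markers of macrophages differed between these groups as a whole, with a summed level of 3786 (WT) and 5715 CPM (cKO) in control tumor, and 1862 and 2781 after IR. All 8 markers were detected. The 7 monocyte markers summed to 2631 and 1550 without IR, and 5699 and 4957 with it.

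**Figure D4:**
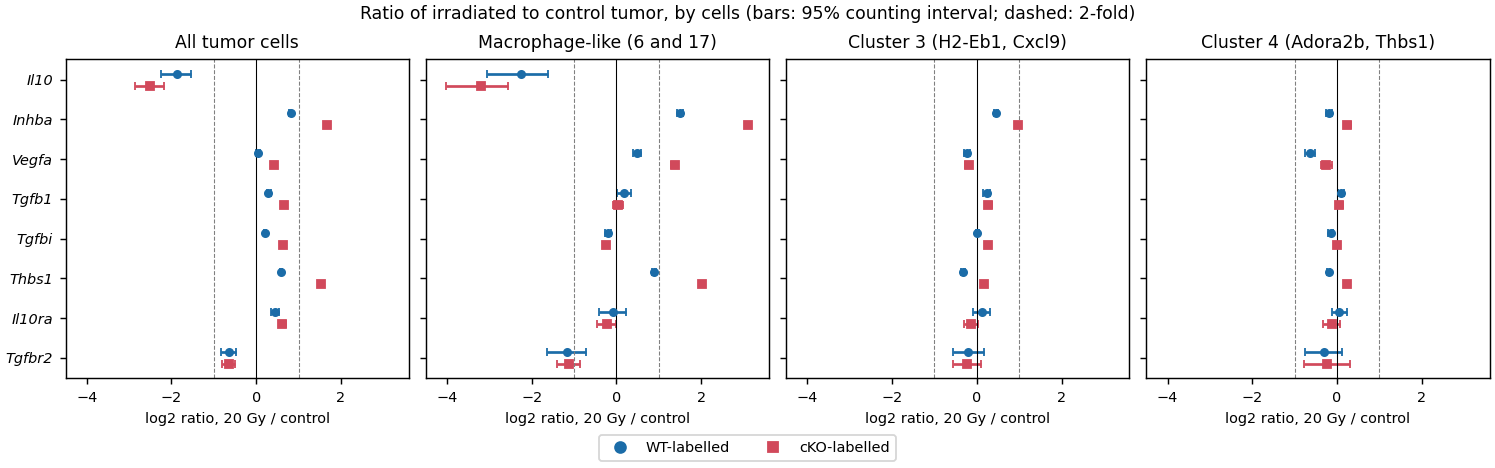
Log2 ratio of irradiated to control tumor (x axis) for the 8 genes (y axis), over all tumor cells, macrophage-like cells and clusters 3 and 4, with blue circles for WT and red squares for cKO. Bars are 95% counting intervals and dashed lines mark 2-fold. Inhba in cells labelled cKO reached 3.1 in macrophage-like cells and 0.24 in cluster 4, and Il10 is not drawn for clusters 3 and 4, where it had too few UMIs.

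How much of each ratio went with the makeup of the groups was measured by giving every group the same mix of the 6 clusters with at least 50 cells in all 4 tumor groups (3, 4, 6, 7, 13 and 14). This leaves out clusters 5 and 10, which had too few control cells. With the mix held fixed, Thbs1 was 0.06 between IR and control in WT, against 0.58 over all tumor cells, and 0.65 against 1.52 in cKO. For Inhba the ratios were 0.64 and 1.2, against 0.81 and 1.67. Il10 stayed at -1.98 in WT and reached -3.87 in cKO. Cluster 5, left out here, held 53 of the 81 Il10 UMIs of irradiated cKO. Il10ra, at 0.62 in cKO over all cells, was at -0.13 with the mix fixed. Tgfb1, lower in control cells labelled cKO by -0.43 over all cells, was at 0.04. The same 6 clusters in each group's own mix gave 0.13 and 0.84 for Thbs1, 0.61 and 1.33 for Inhba and -1.92 and -3.93 for Il10. They gave -0.03 for Il10ra in cKO and -0.17 for Tgfb1 between the control groups. Leaving out the other clusters thus made up more of the move of Thbs1, and of Il10 and Il10ra in cKO, than fixing the mix did.

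In blood, the sorted cells were mainly neutrophil-like and monocyte-like. Il10 was near absent, with 2 UMIs in WT control and 0 in the other 3 groups. A count of 0 allows up to 0.137 to 0.162 CPM in these. Inhba held 28 and 62 UMIs in control and 34 and 12 after IR (WT and cKO), or 1.33, 3.29, 1.55 and 0.649 CPM. Of the 62 UMIs in control cKO, 64.5% were in cluster 20, neutrophil-like cells led by Ltf and Ngp. Monocyte-like cluster 2 held 0 UMIs of Inhba in all 4 groups.

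Of the 6 other genes, 0 of 6 were past 2-fold between IR and control blood in either genotype, where 1.29% of genes were in WT and 1.39% in cKO. Between the genotypes, 2 of 6 were past 2-fold in control, Vegfa and Thbs1, both lower in cKO, where 2.24% of genes were. After IR 1 of 6 was, Thbs1, where 0.676% were. Thbs1 was at 175 (170 to 181) and 64.1 (60.6 to 67.9) CPM in control and at 119 (114 to 124) and 50.6 (47.4 to 53.9) after IR. Both WT groups were above both cKO groups. The log2 ratio of cKO to WT was -1.45 (-1.54 to -1.35) in control and -1.23 (-1.34 to -1.12) after IR. Within cell types, in monocyte-like cluster 2, Thbs1 was at 223 and 50.2 in control (-2.15: -2.32 to -1.99) and at 154 and 59.5 after IR (-1.37: -1.51 to -1.22). In neutrophil-like cluster 0 it was at 180 and 23.0 in control (-2.96: -3.49 to -2.5). In monocyte-like cluster 18, by contrast, it was at 74.5 and 64.3 after IR (-0.21: -0.72 to 0.31). Neutrophil-like clusters 20 and 11 held it at 484 and 184 in control cKO, where they had 62 and 424 cells and were under 50 in the other groups.

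Vegfa was at 21.1 and 8.56 CPM in control blood and at 14.5 and 9.9 after IR. Neutrophil-like clusters 0, 1 and 8 held it at 16.6 to 50.5, and monocyte-like cluster 2 at 0.232 to 3.04. Tgfb1 showed the opposite distribution, 452 to 531 in nonclassical monocyte-like cluster 9 and 363 to 418 in monocyte-like cluster 2, which held 51.8% to 63.3% of its UMIs, against 113 to 165 in neutrophil-like cluster 0. Over all blood cells Tgfb1 was at 254 and 292 in control and 278 and 307 after IR. Tgfbi was at 502 and 554 in control and 590 and 687 after IR, higher after IR by 0.23 and 0.31 on the log2 scale. Il10ra was at 71.7, 75.0, 72.4 and 60.7 in the order control WT, control cKO, IR WT and IR cKO, and nonclassical monocyte-like cells held it at 129 to 146. Tgfbr2 was at 57.3, 51.9, 50.2 and 48.7. It was at 77.7 to 111 in neutrophil-like cluster 0 and at 74.2 to 116 in NK-like cluster 15.

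Across 33 sums of a tumor cluster in a group, the genes whose log2 levels were most like each member were ranked by Pearson's r over 8675 genes. The sums share libraries and differ in depth, so r is a description. Inhba was most like Pla2g7 (0.952), C3 (0.927) and Rbms1 (0.926), and Thbs1 was most like the lectin genes Clec4e (0.965) and Clec4d (0.949) and Slc11a1 (0.965), a metal transporter of phagosomes. Inhba and Thbs1 were like each other, with r of 0.894. Il10 followed Fcrls (0.803), Gas6 (0.8) and Cx3cr1 (0.791), Tgfbi followed Tns3 (0.955) and Psap (0.952), and Tgfb1 followed Lrp10 and Cd244a (both 0.928). Vegfa was most like Dusp6 (0.862), Il10ra most like Pim1 (0.952) and Tgfbr2 most like Ctla2b (0.883).

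The other genes of these pathways were taken from whole lists and are counted in tumor. These lists were drawn up with earlier results of these data known, and all counts are to be read against the 5.8% (WT) and 22.0% (cKO) of genes past 2-fold with IR. In the IL-10 axis, 12 genes had at least 100 UMIs, and with IR 0 were past 2-fold in WT (median 0.28) and 3 were higher in cKO (median 0.68). Among these were Socs1 (58.8 to 132 CPM, 1.17), an inhibitor of cytokine signaling, and Il1rn (460 to 928, 1.01), the receptor antagonist of IL-1. Without fibroblast-like cluster 12, where 5.63% (WT) and 10.3% (cKO) of all genes were past 2-fold, 2 of the 12 were higher in cKO, Il1rn was at 0.58 and the median was 0.33. Among 11 other suppressive factors, 3 were higher and 1 lower with IR in both genotypes. Nos2, which makes nitric oxide, went from 110 to 228 in WT and from 64.3 to 342 in cKO. Cd274, the gene of PD-L1, went from 158 to 317 and from 99.1 to 328, and Lgals9, the gene of galectin-9, from 87.2 to 217 and from 79.7 to 212. Mrc1, a mannose receptor, was the lower one, from 181 to 73.8 and from 316 to 155. Without cluster 12, 1 was higher and 1 lower in WT, where Nos2 (0.93) and Cd274 (0.89) were no longer past 2-fold, and 4 were higher and 3 lower in cKO.

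Among TGF-β superfamily ligands and latency proteins, 8 genes were measured, of which 0 were higher and 1 lower with IR in WT, and 1 was higher and 3 were lower in cKO. The latter were Gdf15 (-1.93), Ltbp3 (-1.8) and Ltbp1 (-1.66). Of 14 receptors and Smads, 0 were past 2-fold in WT and 1 was higher and 2 were lower in cKO, with Acvrl1, a type I receptor, going from 23.4 to 64.2. Of the superfamily inhibitors, 0 of 9 were past 2-fold in WT and 2 of 10 were lower in cKO, Fstl1 (-2.14) and Fstl3 (-1.43), which bind or modulate activins and related ligands. Of 8 TGF-β targets, 0 were past 2-fold in WT and 5 were lower in cKO, Col1a1 (-3.09), Ccn1 (-2.75) and Ltbp2 (-2.1) among them. Most of these lower genes are matrix genes, and 99.4% of the Ccn1, 97.8% of the Col1a1 and 99.3% of the Fstl1 UMIs of the 2 groups were in fibroblast-like cluster 12, which went from 11.8% of cells in control cKO to 1.25% after IR. The 5 fibroblast markers summed to 452 and 694 CPM without IR, and 246 and 123 with it. Without cluster 12, 0 of 8 inhibitors and 0 of 6 ligands and latency proteins were past 2-fold with IR in cKO, where 10.3% of all genes were. Of 12 receptors and Smads 1 was still higher, and of 5 targets 1 was still lower, with a median of -0.75 over the targets.

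Of 12 angiogenic ligands and receptors in WT, 1 was higher and 2 were lower with IR, and of 14 in cKO 4 were higher and 5 lower. Kdr, the main VEGF receptor, went from 1.43 to 3.89 CPM in WT and from 0.629 to 4.27 in cKO, and Vegfb from 19.3 to 9.61 and from 29.0 to 7.53. Without cluster 12, 2 were higher and 4 lower of 12 in cKO. In the thrombospondin family and its receptors, 0 of 6 were past 2-fold with IR in WT and 1 was higher in cKO, Cd36 (17.95 to 39.1), and of 11 hypoxia genes 0 were in WT and 1 was in cKO, Hif1a (195 to 412). Without cluster 12 neither list had a gene past 2-fold with IR, Cd36 being at 0.68 and Hif1a at 0.82 in cKO. Between the genotypes, 3 of 8 TGF-β targets were higher in control cells labelled cKO, Col1a1 (1.82) and Ccn1 (1.06) among them, against 4.74% of all genes. Of the UMIs of these groups, 98.7% for Col1a1 and 99.5% for Ccn1 were in cluster 12, and Ccn1 was at -0.05 without it. Of the 5 targets with enough UMIs outside cluster 12, 1 was still higher in control cKO, against 3.04% of all genes past 2-fold. The IL-10 axis and the hypoxia genes held 0 genes past 2-fold between the genotypes in either treatment.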

How the data were processed

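Per the file headers and the labels, the authors counted UMIs with Cell Ranger (6.0.1 in the submitters' processing notes, which also name Seurat 4.0.6, and 4 in the headers) on mm10 and deposited raw counts for every barcode, without normalization. Cells of 10x 3′ libraries were called again here, by an order-of-magnitude threshold and a test against the ambient profile, and needed at least 200 genes, at most 25% mitochondrial UMIs and 20 hashtag UMIs (WT where B0301 was at least B0302, cKO where B0302 was at least 4 times B0301). Scrublet's own threshold marked 1 to 11 barcodes per library and had not worked, so the 6% with the highest scores were removed (scanpy 1.11.5). Cells were clustered with Seurat (2000 variable genes, 40 components, resolution 0.8). The 8 members, Ythdf2, Lyz1 and Lyz2 were left out of the variable genes. A marker was raised if found in 25% of a cluster's cells at 2 times the level elsewhere, and a name needed 3. UMIs were summed per group, and 1 depth-scaled UMI was added in ratios. With 1 pool per group no p-value was computed, and intervals are 95% counting intervals. The named genes are the 8 members, up to 4 genes of each related list and the 3 genes most like each member. Some genes of the related lists are not reported here. Members, lists and naming thresholds were chosen with earlier results of these data known. Alternatives are given in the closing section. The ratio code was tested on simulated data.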

Additional observations from a re-analysis of the deposited data

Results flagged for a closer look

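Among 80 pairs of effects compared over tissues and treatments, 9 had opposite signs with both counting intervals clear of 0. Each group was 1 pool, so none of these differences was tested. Thbs1 differed most between tissues. In cells labelled WT, IR against control was 0.58 in tumor and -0.56 in blood, 1.14 apart on the log2 scale. In cells labelled cKO it was 1.52 and -0.34, 1.86 apart. Within cKO blood clusters with enough UMIs it was 0.25 (0.05 to 0.45) in cluster 2, 0.36 (-0.22 to 0.93) in cluster 9 and -0.2 (-0.54 to 0.14) in cluster 1. Clusters 11 and 20, where Thbs1 was high, went from 424 and 62 cells in control cKO blood to 37 and 5 after IR. Their part in the blood value was not tested. Il10ra with IR in cells labelled cKO was 0.62 in tumor and -0.31 in blood, 0.93 apart. Its tumor value was 0.18 without cluster 12 and -0.13 with the cluster mix held fixed.

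The remaining pairs concern cKO against WT. Inhba was at -0.68 in control tumor and 0.19 in irradiated tumor, a difference of -0.87, and Tgfbi was at -0.2 and 0.24, a difference of -0.44. In control, Tgfb1 was at -0.43 in tumor and 0.2 in blood (-0.63), Tgfbi at -0.2 and 0.14 (-0.34), and Tgfbr2 at 0.33 and -0.14 (0.47). After IR, Tgfb1 was at -0.06 in tumor and 0.14 in blood (-0.2). Leaving out fibroblast-like cluster 12 turned Tgfbi in control tumor to 0.02 and moved Tgfb1 there to -0.22.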

How the results depend on the processing

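No paired analysis was possible because each group was 1 sample, and for the same reason no replicate could be left out. Over all cells of a group, 613 of 648 recomputed ratios of the 8 genes kept their sign. All 93 recomputations of ratios past 2-fold did, and 89 stayed past 2-fold. Keeping the sign did not mean keeping the value. Asking the same hashtag margin of both labels moved 20 ratios outside their counting intervals and left 36 inside. TMM factors moved 21 and left 35, and the mean over cells of each cell's level moved 31 and left 25. Leaving out cluster 12 moved 24 and left 32, and holding the cluster mix fixed in tumor moved 24 and left 8. No other setting moved more than 2. In macrophage-like cells, 122 of 155 kept their sign, as did 50 of 50 past 2-fold, of which 35 stayed past it.

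The single gene past 2-fold between cKO and WT in control tumor, Thbs1, was lost (0 genes) with the mean over cells of each cell's level, with the cluster mix held fixed, and without cluster 12, the last chosen after seeing the data. With the mix held fixed, 1 gene, Il10 at -1.58, was past 2-fold between cKO and WT after IR, against 0. The same clusters in their own mix gave -1.35 for Il10. Macrophage-like cells depended on how the class was drawn, and so did the share of UMIs they held. In irradiated tumor the class held 22.1% (WT) and 26.6% (cKO) of the Inhba UMIs. At resolution 0.4 it held 90.9% and 92.4%, and at 1.2 it held 11.8% and 14.7%. Naming each cell by its own markers gave 21.2% and 27.8%. For Thbs1 the shares were 17.2% and 24.2%, and 78.8% and 84.3% at resolution 0.4. Counts of genes past 2-fold in the class moved as well. For IR in WT, resolutions 0.4 and 1.2 each gave 1 gene in place of 3. For cKO against WT in control, they gave 1 each in place of 2, and naming each cell by its own markers gave 0. That naming gave 3 in place of 5 for IR in cKO. The cause was not tested.

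TMM factors, which moved all ratios of IR to control in tumor up by 0.15 in WT and 0.21 in cKO, left every count of members past 2-fold as it was. Il10 had 81 to 443 UMIs per tumor group, which limits its ratios within clusters.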
